A study of Canis lupus familiaris with 2 samples.

Results

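BST2, ISG20, OAS1, TMEM173, IFGGB1, IFGGB2 and IFGGC1 are genes of the interferon response: antiviral effectors, the DNA-sensing adaptor STING and immunity-related GTPases. They were taken by symbol from a deposited table of 1729 genes that differ between a doxorubicin-resistant canine lymphoma line and its parent, and all 7 had exactly 1 row. The 7 genes were put together because they were lower in the resistant line, so their direction and the size of their differences are a description here and carry no test.

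CLBL-1 8.0 is a form of the canine diffuse large B-cell lymphoma line CLBL-1 that tolerates doxorubicin, an anthracycline that intercalates into DNA, and was cultured with 8 µM of its hydrochloride salt. CLBL-1, the parental line, is labelled as having no chemoresistance. Both derive from lymph node tissue of a stage IV tumour and were grown in RPMI medium with 10% fetal bovine serum and antibiotics. Poly-A RNA of each line was sequenced as 1 sample, so no difference below has a replicate check, and drug exposure and resistance cannot be told apart. The comparison asks which transcripts differ in abundance between the resistant and the parental line.

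Interferons act through cell-surface receptors, JAK kinases and STAT transcription factors to switch on a large set of genes that restrict viruses and intracellular microbes. STING, encoded by TMEM173, sits in the endoplasmic reticulum membrane. It responds to the cyclic dinucleotide that the enzyme cGAS makes when it meets DNA in the cytosol, and it recruits the kinase TBK1 to activate the transcription factor IRF3 and interferon production. The immunity-related GTPases, best known from mice, are induced by interferon gamma and act on the vacuoles that hold intracellular parasites and bacteria.

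All 7 genes were lower in CLBL-1 8.0 than in CLBL-1, against 34.8% of all 1729 rows. Of the 7, 6 were at least 4-fold lower and the other, TMEM173, was listed at 0 in CLBL-1 8.0, whereas 4.63% of all rows were at least 4-fold lower or at 0 in CLBL-1 8.0. Because the genes were chosen from this comparison, these shares do not say that the set stands apart. The values are abundances per gene that the authors deposited without stating whether they are FPKM or TPM, and the depth of the libraries is unknown. Where a log2 difference is given, it is log2((CLBL-1 8.0 + 1)/(CLBL-1 + 1)) of these values, which understates the difference of low values.

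**Figure D1:**
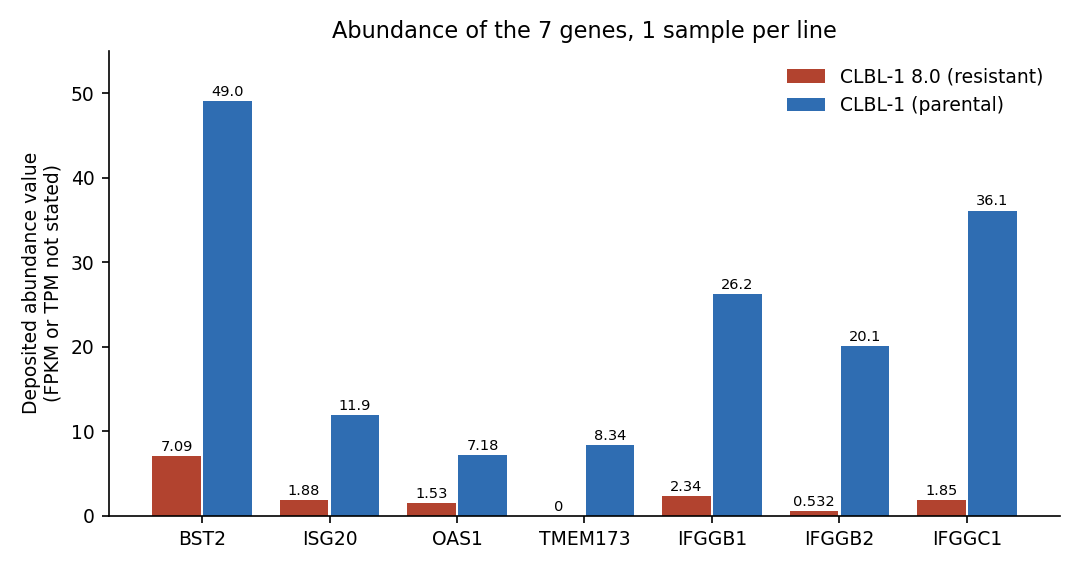
Deposited abundance of the 7 genes (vertical axis, unit not stated by the authors) in CLBL-1 8.0 (red, left) and CLBL-1 (blue, right), with 1 sample per line and therefore no error bars. Every red bar is below its blue neighbour, from 7.09 against 49.0 for BST2 to 0 against 8.34 for TMEM173.

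The antiviral effectors kept between 14.4% and 21.4% of their parental level. BST2, also called tetherin, holds budding enveloped viruses at the cell surface. It lies on chromosome 20 from 45383757 to 45390093 on the plus strand (gene ID 609654; positions as deposited, with the build CanFam3.1 per the submitters' processing notes). BST2 was at 7.09 in CLBL-1 8.0 and at 49.0 in CLBL-1, which is 6.92-fold lower with a log2 difference of -2.63. ISG20 is an interferon-induced exonuclease that degrades single-stranded RNA, on chromosome 3 from 51822642 to 51833665, plus strand (gene ID 488729). ISG20 was at 1.88 in CLBL-1 8.0 and at 11.9 in CLBL-1, or 6.32-fold lower, with a log2 difference of -2.16. OAS1 makes the oligoadenylates that activate the antiviral ribonuclease RNase L, and its gene lies on chromosome 26 from 10385393 to 10396734, plus strand (gene ID 608778). OAS1 was at 1.53 in CLBL-1 8.0 and at 7.18 in CLBL-1, or 4.68-fold lower, with a log2 difference of -1.69. The OAS1 values are near the lower end of what the table holds, since the smallest larger value of any row is 5.01. OAS family genes resemble each other, so reads could have been split among them.

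TMEM173 lies on chromosome 2 from 34783947 to 34792204, minus strand (gene ID 606815). It was listed at 0 in CLBL-1 8.0 and at 8.34 in CLBL-1, and no fold is given against a value of 0. It was among 6 rows at 0 in CLBL-1 8.0, while 3 rows were at 0 in CLBL-1. Without read counts, a listed 0 does not set an upper limit on the transcript. The CLBL-1 value of 8.34 is also near 5.01, the smallest larger value of any row.

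The immunity-related GTPases were the lowest relative to the parental line among the 6 genes with a value above 0. IFGGC1, described in the table as similar to interferon-inducible GTPase 1, a mouse protein, was at 1.85 in CLBL-1 8.0 and at 36.1 in CLBL-1. That is 19.5-fold lower, with a log2 difference of -3.70. IFGGB2, which carries the same description, was at 0.532 in CLBL-1 8.0 and at 20.1 in CLBL-1, or 37.7-fold lower. Its deposited log2 fold of -5.24 became -3.78 with the pseudocount of 1, because the resistant value is below 1. IFGGB1 is described as a T-cell-specific guanine nucleotide triphosphate-binding protein, the name of a mouse GTPase of this family. IFGGB1 was at 2.34 in CLBL-1 8.0 and at 26.2 in CLBL-1, or 11.2-fold lower, with a log2 difference of -3.02. Among the 596 lower rows with a finite deposited fold, IFGGB2 ranked 17th, IFGGC1 21st and IFGGB1 27th, ahead of BST2 at 39th, ISG20 at 42nd and OAS1 at 58th.

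The 3 GTPase genes are consecutive listed rows near the start of chromosome 11. IFGGB1 (gene ID 606875) runs from 571254 to 588689 on the minus strand, IFGGC1 (gene ID 481471) from 829191 to 842628 on the plus strand and IFGGB2 (gene ID 481470) from 857713 to 873282 on the minus strand. The first listed row of the chromosome is a further member of the family, LOC606863, at 506981 to 523338 on the minus strand. It is described as similar to IRGM, the M-type immunity-related GTPase, which in mice regulates the other family members and in humans is tied to autophagy. LOC606863 was at 0.856 in CLBL-1 8.0 and at 17.5 in CLBL-1, 20.4-fold lower with a log2 difference of -3.32. These are the first 4 listed rows of chromosome 11 and span 366 kb. Each was at 2.65% to 8.94% of its parental level. The next listed row, the zinc finger gene ZFP2, starts 1759 kb further on and was higher, at 6.26 in CLBL-1 8.0 and at 3.57 in CLBL-1. The other 30 listed rows of the chromosome had log2 differences of -1.41 or above, 19 of them higher and 11 lower, with a median of 0.73. Genes near this group without a row were not analysed here. In the gene order of a newer dog assembly, UU_Cfam_GSD_1.0, 3 protein-coding genes lie between LOC606863 and IFGGB2. Of these, IFGGC1 alone was matched to a row by gene ID. In the same order, 28 protein-coding genes lie between IFGGB2 and ZNF354A, the zinc finger gene after ZFP2, and 10 lie before LOC606863. None of either group was matched to a row by gene ID. ZFP2 has a row but could not be placed in that gene order, and IFGGB1 was not matched in that assembly. These counts can therefore miss genes that have a row. Family members resemble each other, so the split of reads among these 4 genes is uncertain, while their summed value was 5.58 in CLBL-1 8.0 and 99.9 in CLBL-1.

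**Figure D2:**
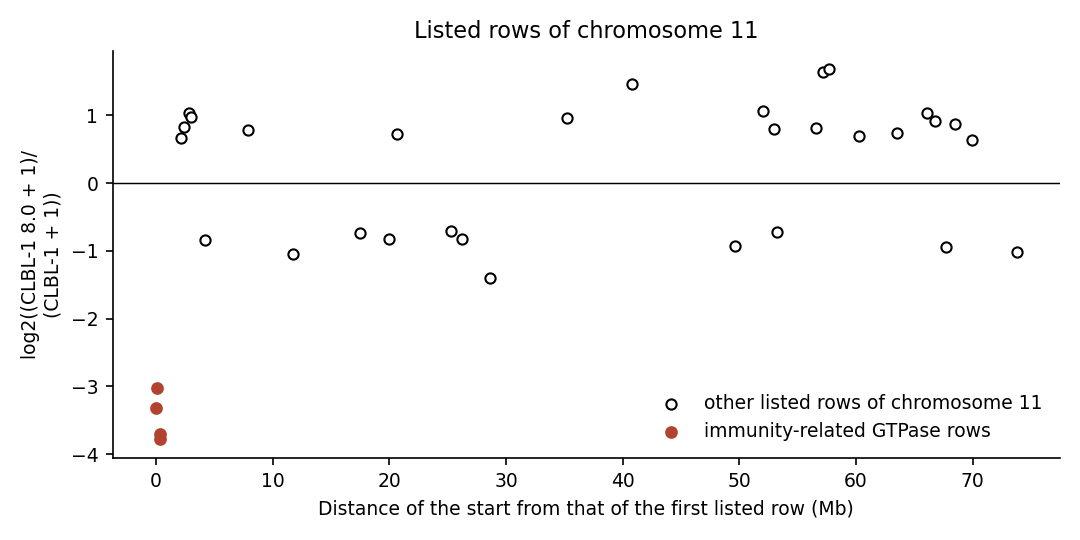
Log2 difference between CLBL-1 8.0 and CLBL-1 (vertical axis, pseudocount 1) of the listed rows of chromosome 11 against the distance of their start from that of the first row (horizontal axis, Mb), 1 point per row. The 4 immunity-related GTPase rows (red) lie between -3.78 and -3.02 at the left edge, while the other 30 rows (open) stay at or above -1.41.

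Most listed rows around the effector genes were higher in CLBL-1 8.0, unlike those genes, as were most rows of the whole table. Among the 5 listed rows on each side of BST2, 8 of 10 were higher in CLBL-1 8.0. Its nearest listed rows were JAK3, a kinase of cytokine receptors, at 15.6 in CLBL-1 8.0 and at 25.2 in CLBL-1, and C20H19orf44 at 13.3 in CLBL-1 8.0 and at 6.92 in CLBL-1. Around ISG20, 7 of 10 rows were higher, and its nearest rows were SV2B, a synaptic vesicle protein, at 56.8 in CLBL-1 8.0 and at 23.7 in CLBL-1, and the tyrosine kinase FES at 48.1 in CLBL-1 8.0 and at 28.0 in CLBL-1. Around OAS1, 8 of 10 were higher, including its nearest rows ACAD10, a member of the acyl-CoA dehydrogenase family, at 10.3 in CLBL-1 8.0 and at 4.76 in CLBL-1, and RASAL1, a regulator of Ras, at 5.84 in CLBL-1 8.0 and at 2.01 in CLBL-1. Such nearest listed rows are not adjacent genes. They lay from 107 kb (RASAL1) to 2952 kb (SV2B) away, with 3 (RASAL1) to 33 (FES) protein-coding genes between in UU_Cfam_GSD_1.0. In all, 23 of the 30 rows beside BST2, ISG20 and OAS1 were higher and 7 were lower, which is 76.7% higher against 65.2% of all rows. With 10 rows on each side, 30% were lower beside BST2, 35% beside ISG20 and 22.2% beside OAS1, against 34.8% of all rows.

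Around TMEM173 the count depended on the window. Of its 10 neighbouring rows, 6 were lower and 4 higher, and with 3 rows on each side 83.3% were lower, with 10 rows 45%. Of all 56 listed rows of chromosome 2, 22 were lower, or 39.3%, near the 34.8% of all rows. On 1 side its nearest row, SPATA24, lies 59.1 kb away and was at 5.33 in CLBL-1 8.0 and at 11.8 in CLBL-1. On the other side, IGIP, which encodes a small protein that promotes IgA production, lies 554 kb away and was higher, at 5.64 in CLBL-1 8.0 and at 2.18 in CLBL-1. MZB1, which helps plasma cells assemble antibodies, is the next row beyond SPATA24 and was at 0.281 in CLBL-1 8.0 and at 18.7 in CLBL-1. MZB1 was named after its value was seen.

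**Figure D3:**
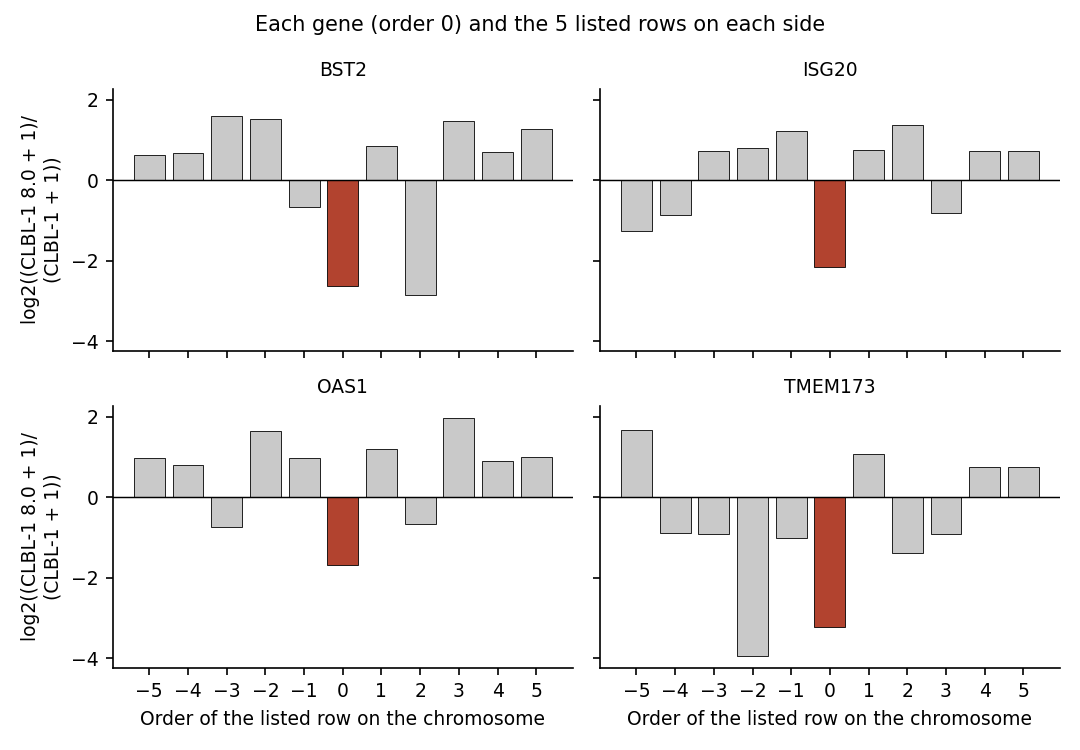
Log2 difference between CLBL-1 8.0 and CLBL-1 (vertical axis, pseudocount 1) of BST2, ISG20, OAS1 and TMEM173 (red, order 0) and of the 5 listed rows on each side of each gene (grey), in chromosome order (horizontal axis). Of the 10 neighbours, 8 were higher for BST2 and for OAS1, 7 for ISG20 and 4 for TMEM173.

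The listed rows among a wider set of interferon-stimulated effectors leaned lower. Of 71 such genes, 11 had a row. In CLBL-1 8.0, 9 of these were lower and 2 were higher, beside 34.8% lower among all rows. Their log2 differences had a median of -1.06, against 0.73 over all rows. Without BST2, ISG20 and OAS1, 6 of the remaining 8 were lower, with a median of -0.92. CXCL10, a chemokine that attracts activated T cells, was at 7.80 in CLBL-1 8.0 and at 36.8 in CLBL-1. APOBEC3Z3, a cytidine deaminase that mutates viral DNA, was at 3.75 in CLBL-1 8.0 and at 9.81 in CLBL-1. HELZ2, a helicase that acts as a nuclear receptor coactivator, went the other way, at 33.3 in CLBL-1 8.0 and at 11.4 in CLBL-1. The second higher gene, SHISA5, named after its value was seen, was at 63.1 in CLBL-1 8.0 and at 34.1 in CLBL-1.

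Apart from the 7 genes, 5 rows are described in the table with interferon or the immunity-related GTPase family in their names, and 4 of them were lower, against 34.8% of all rows. These rows, looked up after the values were seen, include LOC606863 given above. PRKRA, an activator of the interferon-induced kinase EIF2AK2, was at 13.1 in CLBL-1 8.0 and at 22.9 in CLBL-1. LOC475935, described as similar to interferon-induced transmembrane protein 1, was at 452 in CLBL-1 8.0 and at 1500.1 in CLBL-1, or 3.32-fold lower. LOC488622, described by the name of a mouse interferon-activable protein from a family that binds DNA, was at 29.8 in CLBL-1 8.0 and at 62.0 in CLBL-1. LOC488947, described as interferon-induced protein with tetratricopeptide repeats 1, was the higher row, at 7.75 in CLBL-1 8.0 and at 1.94 in CLBL-1. LOC488947 thus differed in the direction opposite to BST2, ISG20 and OAS1. Neither LOC488947 nor LOC475935 was counted among the effectors above, which were found by symbol or gene ID. Genes of the transmembrane family closely resemble each other and can share reads.

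Upstream of these effectors, genes of nucleic acid sensing and STING signalling were higher in most rows, as were most rows of the whole table. Of 48 genes, 12 had a row. Of these, 9 were higher and 3 were lower, beside 65.2% higher among all rows, and the median of their log2 differences was 0.72, beside 0.73 for all rows. Centred on that median, which leaves as many rows of the table lower as higher, 5 were higher and 7 lower. The lower genes were TMEM173, NLRC3 and TANK. NLRC3, a member of the NLR family known in mice to restrain STING, was listed at 0 in CLBL-1 8.0 and at 13.7 in CLBL-1. TANK, a scaffold that binds TRAF3 and TBK1, was at 12.4 in CLBL-1 8.0 and at 29.4 in CLBL-1. Among the higher genes, TLR3, the endosomal receptor for double-stranded RNA, was at 8.58 in CLBL-1 8.0 and at 3.46 in CLBL-1. TRAF3, an adaptor between the sensors and TBK1, was at 22.2 in CLBL-1 8.0 and at 11.6 in CLBL-1. LAMP3, an interferon-inducible lysosomal membrane protein, was at 32.4 in CLBL-1 8.0 and at 14.9 in CLBL-1. MAVS, the mitochondrial adaptor of the RNA sensors, was named after its value was seen and was at 35.4 in CLBL-1 8.0 and at 22.04 in CLBL-1. The MAVS log2 difference of 0.66 is below the median of all rows, so its sign turns when centred on that median.

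Of 46 interferons, interferon receptors and JAK-STAT genes counted here, 2 had a row, 1 lower and 1 higher. STAT4, a mediator of interleukin 12 signalling, was at 0.523 in CLBL-1 8.0 and at 6.31 in CLBL-1. CBL, a ubiquitin ligase that limits receptor and kinase signalling, was at 31.5 in CLBL-1 8.0 and at 13.4 in CLBL-1. JAK3, given above beside BST2, was not on this list. No interferon gene, interferon receptor gene or IRF gene of the list had a row, and they were not analysed here. In the list of 21 immunity-related and guanylate-binding GTPases, the 4 rows were those of chromosome 11 given above. All were lower, against 34.8% of all rows, but 3 of the 4 were chosen for being lower. Without them, LOC606863 was the 1 row left.

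The listed genes of class I antigen processing, which interferon also induces, were lower as well. Of 17 genes, 4 had a row and all 4 were lower, against 34.8% of all rows. The median of their log2 differences was -1.05, against 0.73 over all rows. NLRC5, the activator of class I transcription, was at 9.71 in CLBL-1 8.0 and at 32.9 in CLBL-1, and B2M, the light chain, was at 797 in CLBL-1 8.0 and at 1550.0 in CLBL-1. DLA88, a class I heavy chain, was at 206 in CLBL-1 8.0 and at 457 in CLBL-1, and ERAP1, a peptidase that trims peptides for class I, was at 34.8 in CLBL-1 8.0 and at 68.4 in CLBL-1. Of 19 autophagy genes that work with STING or these GTPases, ULK2, a kinase that starts autophagy, was the single row, at 7.49 in CLBL-1 8.0 and at 13.5 in CLBL-1.

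**Figure D4:**
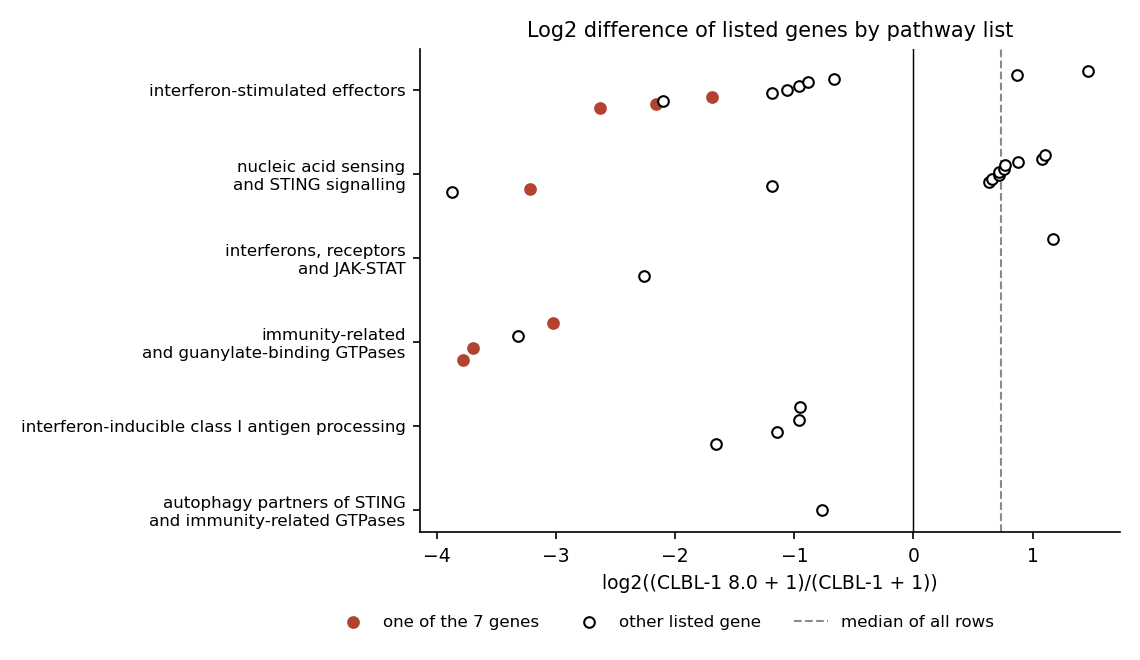
Log2 difference between CLBL-1 8.0 and CLBL-1 (horizontal axis, pseudocount 1) of every listed gene of the 6 pathway lists, 1 point per gene, with red for the 7 chosen genes, open circles for other genes and a dashed line at the median of all rows, 0.73. The GTPases lie between -3.78 and -3.02, and 9 of 11 effectors lie below 0. Above 0 lie 9 of 12 sensing genes, beside 65.2% of all rows.

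In the authors' deposited table of ontology terms, BST2, ISG20, OAS1 and TMEM173 belong to defense response to virus, a term of 14 genes with the authors' p of 0.0109. Of its genes, 9 were lower and 5 higher in CLBL-1 8.0, beside 34.8% lower among all rows. Centring on the median of all rows leaves as many rows of the table lower as higher. Then 11 of the 14 were lower, the 4 chosen genes among them. Without centring, the 10 genes other than BST2, ISG20, OAS1 and TMEM173 were split, 5 lower and 5 higher. The higher genes included TLR3 and LOC488947. In negative regulation of viral genome replication, which holds BST2, ISG20 and OAS1 and has a p of 0.00893 in the authors' deposited table, 4 of 7 genes were lower. Of the 4 others, SLPI, a secreted protease inhibitor, was lower, at 0.194 in CLBL-1 8.0 and at 97.8 in CLBL-1. The chemokine CCL5 was higher, at 43.1 in CLBL-1 8.0 and at 5.71 in CLBL-1, as were MAVS and LOC488947. SLPI and CCL5 were named after their values were seen. TMEM173 also belongs to RIG-I-like receptor signaling in the authors' deposited table of pathways, with a p of 0.0122, where 9 of 12 genes were higher and 3 lower, beside 65.2% higher among all rows. Centred on the median of all rows, where lower and higher rows are equal in number, 8 of these 12 were lower. IFGGB1, IFGGB2 and IFGGC1 fall in GTP binding, a term of 37 genes with a p of 0.0217 in the authors' deposited table, and 23 of the 34 others were higher, or 67.6%, near the 65.2% of all rows. In all, 10 of 118 ontology terms and 6 of 50 pathways name at least 1 of the 7 genes.

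The genes most like IFGGB2, IFGGC1 and TMEM173 were sought by distance between pairs of log2(value + 1), a measure over the 2 samples alone. For IFGGB2 the nearest named row was WDR41, a WD repeat protein, at 0.423 in CLBL-1 8.0 and at 21.2 in CLBL-1, with a distance of 0.13. For TMEM173 it was the ubiquitin ligase RNF128, at 0.0370 in CLBL-1 8.0 and at 8.002 in CLBL-1, with a distance of 0.074. The 7 genes themselves and rows without a gene name were left out of this search. For IFGGC1 the nearest row was TMC7, a transmembrane channel-like protein, at 3.75 in CLBL-1 8.0 and at 31.7 in CLBL-1, with a distance of 0.76.

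The labelled cell type could be checked only in part, because 1 of 9 B cell markers had a row, the tetraspanin CD37, at 26.6 in CLBL-1 8.0 and at 50.4 in CLBL-1. Of 17 T and NK cell markers, 6 had a row, 3 higher and 3 lower, with a summed value of 104 in CLBL-1 8.0 and 88.1 in CLBL-1. The sum hides opposite differences. THEMIS was at 0.0989 in CLBL-1 8.0 and at 5.69 in CLBL-1, and TRAT1 at 20.6 in CLBL-1 8.0 and at 2.72 in CLBL-1. Of 12 myeloid markers FCER1G was listed, at 14.01 in CLBL-1 8.0 and at 7.74 in CLBL-1, and among 12 markers of stroma and epithelium the table held EPCAM, at 2.07 in CLBL-1 8.0 and at 5.26 in CLBL-1. None of these listed markers was at 0 in either line. Their part in the interferon gene values was not tested. In such bulk RNA, fewer cells that express a gene and less RNA per cell cannot be told apart.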

How the data were processed

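RNA of the resistant and the parental line came from 3 dishes, per the labels' protocols, and each line is 1 sample. HISAT2, StringTie and CanFam3.1 are named in the submitters' processing notes, while the sources used here give no versions, annotation, strand handling or rule of row selection. Deposited abundances have no stated unit. The deposited log2 fold changes are the authors', per the file headers, and equal the log2 ratio of the 2 values to within 1.6e-14. Each deposited p-value of a term is the authors', with the adjustment not given.

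From these, log2 differences with a pseudocount of 1, list counts and medians, and counts over the 5 rows on each side were computed (Python 3.11.15, pandas 2.3.3), and the procedures were tested on simulated data. No test between the lines was made. Genes of the lists were found by symbol, then through the gene ID in UU_Cfam_GSD_1.0 (1605 of 1707 IDs, and 6 of the 7 genes, found). A gene of the JAK-STAT list is not reported here. The genes and lists were chosen with earlier results of these data known. Named were the 7 genes, up to 6 listed genes per list by absolute difference, the nearest rows on each side, and the most similar row of 3 genes.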

Additional observations from a re-analysis of the deposited data

How the results depend on the processing

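The 7 genes remained lower under each of the alternatives that gave a value. They were no pseudocount, pseudocounts of 0.1 and 5, and upper-quartile scaling of the parental values by 1.25. Centring on the median of all rows and a floor of 10 in the higher line were also tried. None of these could make a lower gene higher, so the unchanged direction is no check, while the sizes could change. Without a pseudocount TMEM173 drops out, which leaves 6 genes. With the floor of 10, OAS1 and TMEM173 drop out, which leaves 5. Differences were counted as moved beyond 1.5 times in fold, since no replicate spread exists. Their median of -3.02 became -2.09 with a pseudocount of 5 and -3.76 when centred. The GTPase median of -3.51 became -4.32 without a pseudocount, -4.21 with 0.1, -2.13 with 5 and -4.24 when centred. Centring lowers every difference by 0.73 and leaves as many rows of the table lower as higher. It also gave medians of -1.79 for the effectors, -1.28 for the JAK-STAT list, -1.78 for class I antigen processing and -1.50 for autophagy. It turned the sensing median to -0.015, with 7 of its genes lower, and put 8 genes of RIG-I-like receptor signaling lower. Without a pseudocount, 1 sensing gene was lower, because TMEM173 and NLRC3 at 0 drop out. The JAK-STAT median of -0.54 over STAT4 and CBL became -1.18 without a pseudocount. With the floor of 10, STAT4 drops out, 0 genes of that list were lower and its value was that of CBL, 1.17. Adding the rows named for interferon to the effectors, an alternative chosen after seeing the data, gave 12 lower and 3 higher rows of 15. PRKRA, counted among the lower, was added for its description as an activator of an interferon-induced kinase, not as an effector. The planned promoter motif search and protein comparison were not run, because no promoter or protein sequences were used here. No paired analysis was possible because each line is 1 sample. With 3 rows on each side in place of 5, 33.3% of the rows beside BST2 and OAS1 were lower in place of 20%, and 16.7% beside ISG20 in place of 30%. How many reads stand behind values below 1 is unknown.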
